A study of Homo sapiens with 6 samples.

Results

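The genes described here encode the clotting, fibrinolysis and complement proteins that the liver releases into blood. They were chosen by name, as 36 gene symbols present in both deposited tables, and all 36 were found once among the 58302 genes listed there. The rule uses names only. By role they comprise 3 fibrinogen chains, 7 vitamin K-dependent proteins, 5 proteins of the contact phase, 3 genes of cofactor, cross-linking and fibrinolysis function, 7 genes of the classical and lectin complement pathways, 3 of the central and alternative steps, 4 of the terminal complex and 4 complement inhibitors.

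In clotting, serine proteases of the vitamin K-dependent family act one on the next on membrane surfaces until thrombin cuts fibrinogen into fibrin. In complement, the classical, lectin and alternative routes meet at the cleavage of C3, and the terminal components then form a pore in the target membrane. Hepatocytes make most of these proteins as abundant secreted products, so their mRNAs are translated on the endoplasmic reticulum. Cytoplasmic poly(A)-binding proteins coat the tails of mRNAs, where they act in translation and in the control of mRNA decay. PABPC1 is the abundant family member and PABPC4 a close relative.

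RNA immunoprecipitation followed by sequencing was done in HepG2, a single established line of liver cancer cells that retains many hepatocyte genes. Per the labels there were 6 libraries in 3 groups of 2. The PABPC1 group used an antibody against PABPC1 and cells in which PABPC1 was overexpressed, and the PABPC4 group an antibody against PABPC4 and cells in which PABPC4 was overexpressed. The IgG group, the background control, had 1 library from each of these 2 cell populations. All groups were therefore HepG2 cells that overexpressed one of the proteins, and unmodified cells and input RNA were not analysed here. The comparison of PABPC4 with PABPC1 differs in both the antibody and the overexpressed protein, which cannot be told apart. In such bulk lysates an mRNA that is scarce in every cell and one that few cells hold cannot be told apart. Likewise, the amount of an mRNA in the lysate and its recovery by the antibody cannot be told apart.

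The deposited tables hold comparisons only, but the whole reads of each library could be worked out from them. A library is called A or B within its antibody, A being the larger, since the replicate number is not recoverable. The PABPC1 libraries totalled 289217 and 277552 reads, those of PABPC4 850190 and 841327, and those of IgG 133030 and 94235, so the IgG libraries set the precision of both comparisons with IgG. Mitochondrial rRNA took 38.3% of the PABPC1 reads, 16.3% of the PABPC4 reads and 55.4% of the IgG reads. Levels are given in RPM, a gene's reads scaled to all reads of its library, mitochondrial rRNA included, and so move with that share. Unless stated otherwise, that libraries overlap or lie apart is said of RPM, and it can differ with reads of nuclear-encoded genes as the total. PABPC1 mRNA itself stood at 595 and 634 RPM with PABPC1 and at 590 and 676 with PABPC4, a log2 difference of PABPC4 minus PABPC1 of -0.40 relative to the median gene (SE 0.11, limma adjusted p = 0.021). PABPC4 mRNA stood at 111 and 155 RPM with PABPC1 and at 162 and 183 with PABPC4, and this difference did not pass the test of PABPC4 against PABPC1 used below (log2 difference -0.06, SE 0.21, limma adjusted p = 0.923). All 13 of 13 hepatocyte markers examined, such as ALB and APOB, were read, at a summed 7081 and 7912 RPM with PABPC1, 9547 and 10229 with PABPC4, and 4743 and 4584 with IgG.

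Of the 36 genes, 31 had at least 1 read and 5 had none in any library. The 5 were F9 (factor IX), PLG (plasminogen), KLKB1 (plasma prekallikrein), HRG (histidine-rich glycoprotein) and C6. With 0 reads the limit is 3 reads a group, which corresponds to 5.29 RPM with PABPC1, 1.77 with PABPC4 and 13.2 with IgG. A PABPC1 read was found for 27 genes, a PABPC4 read for 30 and an IgG read for 23. Together the 36 genes held 476 and 497 reads in the PABPC1 libraries, 2399 and 2459 in the PABPC4 libraries, and 135 and 115 in the IgG libraries. Their summed level was 1646 and 1791 RPM with PABPC1, 2822 and 2923 with PABPC4, and 1015 and 1220 with IgG. Both PABPC4 libraries were the highest and both IgG libraries the lowest. Divided by reads of nuclear-encoded genes only, the same sums were 3015 and 2974 RPM with PABPC1, 3484 and 3674 with PABPC4, and 2538 and 2900 with IgG. The order of the 3 groups was the same on this scale, and the gaps between them were smaller.

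C3 and FGA held the most reads. C3 made up 25.9% of the reads of all 36 genes with PABPC1 (exact Clopper-Pearson 95% interval 23.2% to 28.8%), 28.1% with PABPC4 (26.8% to 29.3%) and 34% with IgG (28.1% to 40.2%). FGA made up 18.1% (15.7% to 20.7%), 17.4% (16.4% to 18.5%) and 18.4% (13.8% to 23.8%). In each gene the intervals of the 3 groups overlapped. These and later intervals cover counting error only. In all, 12 genes had at least 100 reads over the 6 libraries and are described one by one: C3, FGA, PROC, F5, FGG, FGB, F2, F10, CFI, C5, PROS1 and CFB. The other 19 genes with a read had fewer.

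**Figure D1:**
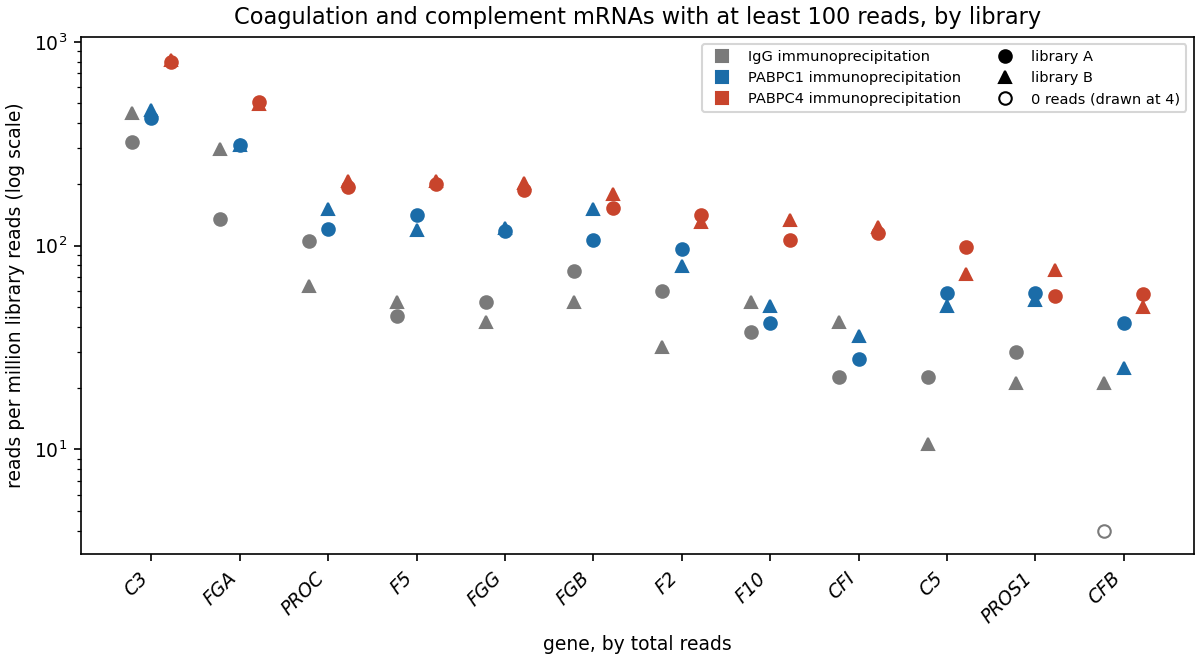
Recovered reads in RPM (log axis) for the 12 genes with at least 100 reads, with 1 point for each of the 6 libraries; circles are library A, triangles library B, and an open point marks 0 reads. In RPM, both PABPC4 libraries lie above both IgG libraries in all 12 genes, and in 9 both PABPC1 libraries do. The share of all genes with such a gap was not computed. With nuclear-encoded totals the gap does not hold for every gene: C3 had 42 of 39657 reads in IgG library B and 680 of 688631 in PABPC4 library A. In each of the 12 genes most reads were from the PABPC4 libraries. The median gene with at least 100 reads was itself above IgG, at a deposited log2 fold of 1.08 with PABPC4 and 0.57 with PABPC1.

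Against IgG, 10 of the 31 genes with a deposited p-value were higher with PABPC4 and 1 was lower, while with PABPC1 0 of 28 passed in either direction. The 10 were FGA, FGB and FGG, the chains of fibrinogen, the clotting factors F2, F5 and F10, the anticoagulant protease gene PROC, and the complement genes C3, C5 and CFI. SERPING1, the C1 inhibitor, was the gene that was lower. A call here is an adjusted p under 0.05 in the authors' deposited table. Over all genes the authors' deposited table called 5.54% higher and 0.900% lower with PABPC4, and 1.34% higher and 0.194% lower with PABPC1. Calls were more frequent among well-read genes: of all genes with at least 100 reads, 32.0% were higher with PABPC4 and 6.30% with PABPC1 in the authors' deposited table. All 10 higher calls lay among the 12 members of that depth.

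Other tests of the same reads gave other counts. Fisher's exact test called 12 members higher and 1 lower with PABPC4, adding CFB and F7, beside 7.28% and 0.797% of all genes. With PABPC1 it called 0, beside 1.76% higher and 0.205% lower of all genes. With the chi-square test adjusted over genes with at least 10 summed reads, PABPC4 had 11 members higher and 0 lower (12.6% and 1.11% of all genes) and PABPC1 had 1 higher, F5, and 0 lower (4.33% and 0.509%). The limma fit, which takes in the spread between libraries, called 0 of the 19 members it covered in either comparison. It also sets the median gene to 0 in place of library totals, and the parts of spread and scaling in this count cannot be told apart here. Over all genes it called 2.42% higher and 1.64% lower with PABPC4 and 0.513% and 0.426% with PABPC1, so that 0 of 19 is near the background. At an unadjusted p under 0.05, the authors' deposited table held 14 of 31 members higher and 1 lower, SERPING1, with PABPC4, beside 11.7% and 1.85% of all genes. With PABPC1 the authors' deposited table held 6 of 28 higher and 1 lower, C4B, at that level, beside 5.98% and 1.05%. Unadjusted, limma held 7 of 19 higher with PABPC4 (10.4% of all genes) and 2 with PABPC1 (7.70%), and 0 lower in either (7.04% and 5.27%). Both comparisons share the same 2 IgG libraries, so they are not independent.

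The size of these folds depends on what the reads are divided by. Over the 12 genes the median log2 fold over IgG in the authors' deposited table was 1.48 with PABPC4 (range 1.07 to 2.37) and 0.97 with PABPC1 (range -0.03 to 1.72). For all genes of at least 100 reads, the authors' deposited table gave medians of 1.08 over 3683 genes with PABPC4 and 0.57 with PABPC1. With reads divided by nuclear-encoded totals, the medians of the 12 genes were 0.50 and 0.43, beside 0.12 and 0.10 over 3670 genes. All 12 stayed above 1-fold with PABPC4 under each of 3 scalings, and the share of all genes that did so was not computed. Of the 12, 0 were called higher with the median gene set to 1, where 0.788% of all genes were. With nuclear-encoded totals 0 were called as well, where 0.523% of all genes were. SERPING1 remained lower on both scales, where 1.85% and 1.99% of all genes were lower. With 0 PABPC4 reads its fold is 0 under any scaling, and both scalings cut the IgG totals more than the PABPC4 totals. Its call there therefore adds no support. With PABPC1, 0 members passed on either scale, beside 0.205% and 0.148% of all genes higher and 0.296% and 0.416% lower. Over all genes the share of PABPC4 calls that were higher was 86% in the authors' deposited table, 29.9% with the median gene set to 1 and 20.8% with nuclear-encoded totals. For PABPC1 the shares were 87.4%, 40.9% and 26.3% in the same order.

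**Figure D2:**
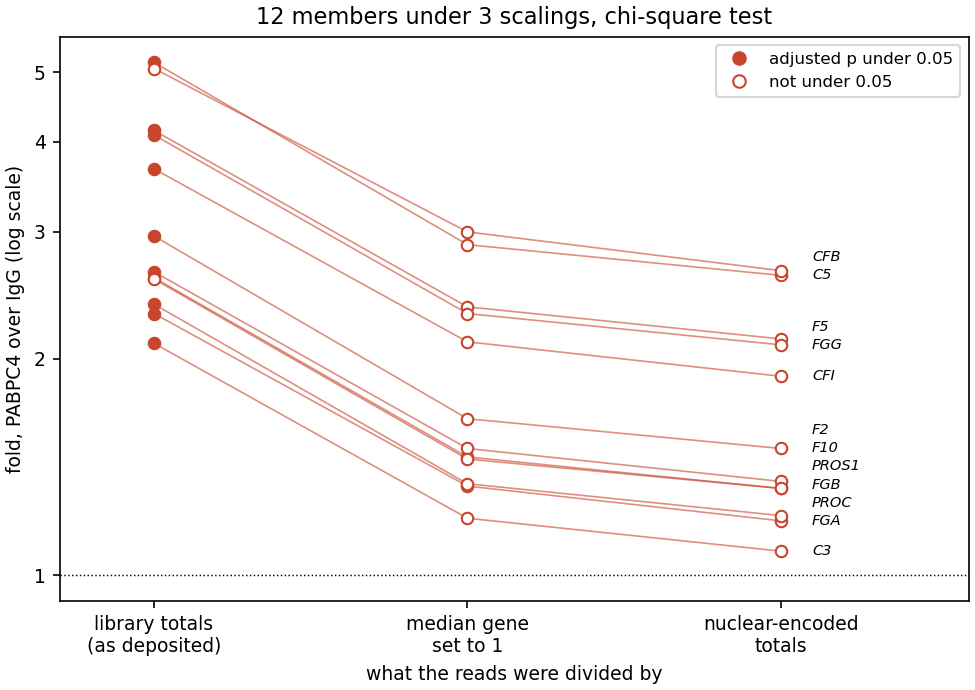
Fold of PABPC4 over IgG (log axis) for the 12 genes with at least 100 reads, from the same chi-square test with reads divided by library totals, by a scale that sets the median gene to 1, and by nuclear-encoded totals. Filled points have an adjusted p under 0.05: 10 genes with library totals and 0 with the other scalings. All 12 stay above the dotted line at 1, and the share of all genes that did so was not computed.

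The fibrinogen genes were called together. FGA, FGB and FGG encode the Aα, Bβ and γ chains, which are assembled into 1 molecule, and lie next to each other on chromosome 4 (GRCh38.p14, FGB chr4:154562980-154572807, FGA chr4:154583126-154590742, FGG chr4:154604136-154612656). FGA was read at 311 and 310 RPM with PABPC1, 505 and 496 with PABPC4, and 135 and 297 with IgG. In RPM the PABPC4 libraries agreed closely and lay above all others, while the IgG libraries stood far apart, IgG B just under the PABPC1 libraries. FGG was read at 118 and 122 RPM with PABPC1, 187 and 202 with PABPC4, and 52.6 and 42.4 with IgG. For FGB the values were 107 and 151 with PABPC1, 153 and 179 with PABPC4, and 75.2 and 53.1 with IgG. In FGG the 3 groups were well apart, and in FGB one PABPC1 library came close to the lower PABPC4 library.

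In the authors' deposited table, FGG was 4.09-fold over IgG with PABPC4 (adjusted p = 6.3e-05, exact 95% interval of the ratio of summed reads 2.22 to 8.13). FGB followed in the authors' deposited table at 2.59-fold (adjusted p = 0.00934, interval 1.5 to 4.56) and FGA at 2.31-fold (adjusted p = 7.7e-08, interval 1.84 to 3.4). These intervals overlap, so the order of the chains by fold is not settled. With PABPC1 the authors' deposited table gave 2.52-fold for FGG, 2.02-fold for FGB and 1.44-fold for FGA, with adjusted p-values of 0.214, 0.485 and 0.328. FGA with PABPC1 became 2.29-fold without IgG library B and 1.04-fold without IgG library A, and was called in neither case. The level per length with PABPC4, in RPKM (RPM per kilobase), was 126 for FGA, 61.4 for FGB and 54 for FGG. FGA was the highest per length of all 36 genes in each of the 3 groups, at 78.5 with PABPC1 and 54.7 with IgG. With the same test on the remaining reads, leaving out IgG library A ended the calls of all 3 chains: FGA became 1.68-fold (adjusted p = 0.206), FGG 4.58-fold (0.0546) and FGB 3.13-fold (0.275). Without IgG library B, FGA became 3.7-fold (adjusted p = 8.6e-07) and the call of FGB was lost at 2.21-fold (0.256).

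Among the vitamin K-dependent genes, 3 of 7 were called higher with PABPC4: PROC, F2 and F10. PROC, which encodes protein C, the protease that inactivates activated factors V and VIII (chr2:127418427-127429242), was read at 121 and 151 RPM with PABPC1, 195 and 207 with PABPC4, and 105 and 63.7 with IgG. F2, which encodes prothrombin (chr11:46719213-46739506), was read at 96.8 and 79.3 with PABPC1, 141 and 131 with PABPC4, and 60.1 and 31.8 with IgG. In both genes the 3 groups did not overlap in RPM. The authors' deposited table gave PROC 2.38-fold (adjusted p = 0.00704, interval 1.46 to 3.79) and F2 2.96-fold (adjusted p = 0.0135, interval 1.54 to 5.71) over IgG with PABPC4. The values with PABPC1 in the authors' deposited table were 1.61-fold and 1.91-fold, with adjusted p-values of 1 and 0.945. The PABPC4 calls of both were lost without either IgG library, at 3.16-fold (adjusted p = 0.14) and 1.91-fold (0.307) for PROC and 4.27-fold (0.251) and 2.26-fold (0.367) for F2, without A and B respectively.

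F10 encodes factor X, which with factor V cuts prothrombin, and lies between F7 and PROZ on chromosome 13 (chr13:113122799-113149529). It was read at 41.5 and 50.4 RPM with PABPC1, 106 and 133 with PABPC4, and 37.6 and 53.1 with IgG. PABPC1 and IgG overlapped, and PABPC4 was apart from both. The fold with PABPC4 was 2.64 in the authors' deposited table (adjusted p = 0.0321, interval 1.45 to 5.75), a call that was lost without PABPC4 library B (2.34-fold, adjusted p = 0.104), IgG library A (2.25-fold, 1) or IgG library B (3.18-fold, 0.188). With PABPC1 it was 1.01 in the authors' deposited table (interval 0.486 to 2.42), and it was below 1-fold with the median gene (0.785) or nuclear-encoded totals (0.726). An antisense gene, F10-AS1, overlaps F10. The strand setting of the counting was not given in the sources used here, so reads of the 2 cannot be told apart. In all, 12 of the 36 genes are overlapped by another annotated gene.

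F7, the start of the tissue factor pathway (chr13:113105791-113120685) and the neighbour of F10, was read at 31.1 and 46.8 RPM with PABPC1, 40 and 42.8 with PABPC4, and 7.52 and 0 with IgG, where the 7.52 is a single read. The PABPC1 and PABPC4 libraries overlapped and all lay above IgG. In the authors' deposited table F7 stood at 10.3-fold with PABPC1 (adjusted p = 0.439, interval 1.43 to 364) and 11-fold with PABPC4 (adjusted p = 0.128, interval 1.63 to 377). PROS1, which encodes protein S, the cofactor of activated protein C (chr3:93873051-93973896), was read at 58.8 and 54 with PABPC1, 56.5 and 76.1 with PABPC4, and 30.1 and 21.2 with IgG. Here too PABPC1 and PABPC4 overlapped, and the authors' deposited table gave 2.2-fold and 2.58-fold over IgG with adjusted p-values of 1 and 0.285. PROZ, protein Z, had 4 PABPC1 reads, 19 PABPC4 reads and 0 IgG reads.

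The contact phase was scarce. F11, factor XI, had 5 PABPC1 reads, 43 PABPC4 reads and 0 IgG reads. With PABPC4 the exact 95% lower limit of the ratio to IgG was 1.5, and the adjusted p was 0.266 in the authors' deposited table. KNG1, the kininogen gene, had 3, 21 and 0 reads, and F12 had 2 reads, both in PABPC4 library B. F11 lies beside KLKB1 on chromosome 4, and KNG1 beside HRG on chromosome 3, so that in each pair of neighbours one gene was read and the other was not. An antisense gene, F11-AS1, overlaps F11.

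F5 encodes factor V, the cofactor of factor X in the prothrombin-cutting complex (chr1:169511951-169586481). It was read at 142 and 119 RPM with PABPC1, 200 and 208 with PABPC4, and 45.1 and 53.1 with IgG. The 3 groups did not overlap in RPM, and the IgG libraries were close to each other. In the authors' deposited table F5 was 4.15-fold with PABPC4 (adjusted p = 2.5e-05, interval 2.33 to 8.52) and 2.65-fold with PABPC1 (adjusted p = 0.107, interval 1.42 to 5.64). Leaving out IgG library A ended the PABPC4 call (3.84-fold, adjusted p = 0.0723). F5 was also the 1 of 14 members tested that passed with PABPC1 when the test was adjusted over genes with at least 10 summed reads, where 4.33% of all genes were higher. F13B, the carrier subunit of factor XIII, had 1 read in all.

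**Figure D3:**
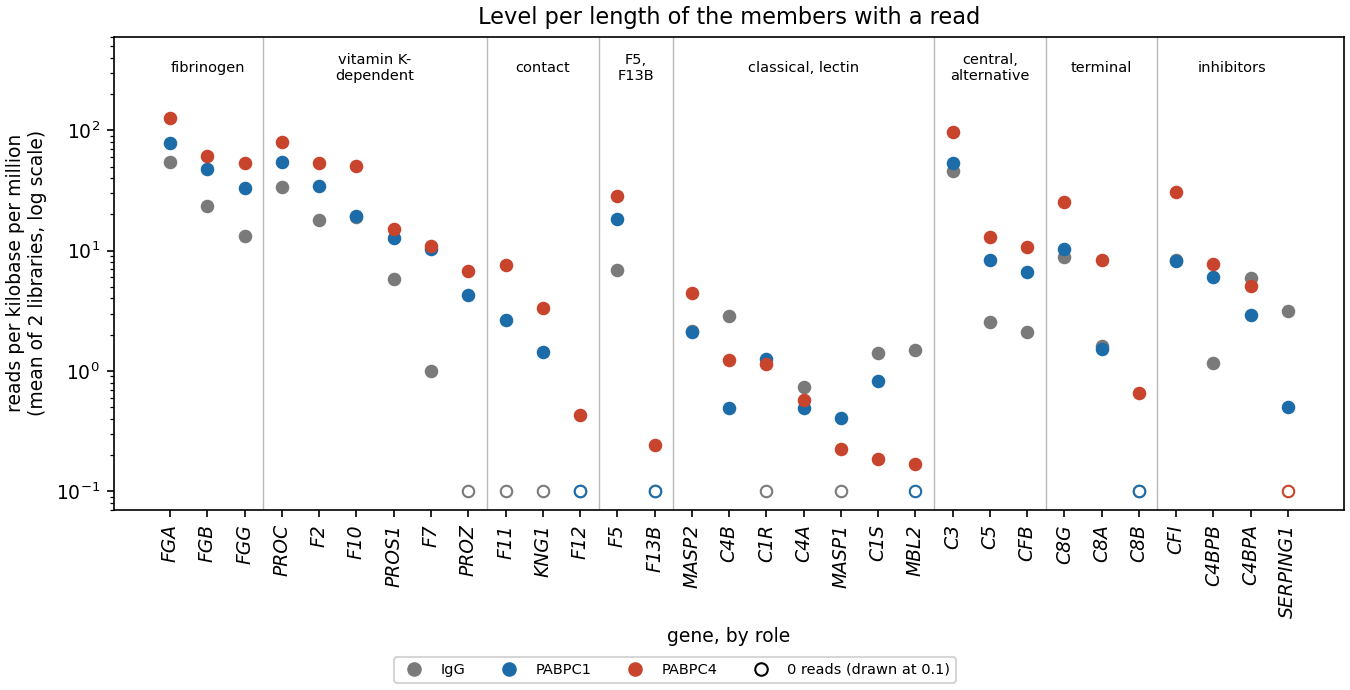
Level per length in RPKM, reads per kilobase scaled to library reads (log axis, mean of 2 libraries) for the 31 genes with a read, grouped by role, with 1 point for each antibody; open points mark 0 reads. With PABPC4 the fibrinogen chains, PROC, F2 and C3 lie highest, and the classical and lectin genes lie below 5 in all groups.

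Most reads of the complement genes were of C3. This gene, where all routes of activation meet (chr19:6677704-6720650), was read at 425 and 465 RPM with PABPC1, 800 and 812 with PABPC4, and 323 and 446 with IgG. In RPM, PABPC4 was well above the rest, while PABPC1 and IgG overlapped. With nuclear-encoded totals IgG library B, with 42 of 39657 reads, was not below PABPC4 library A, with 680 of 688631. The authors' deposited table gave 2.1-fold over IgG with PABPC4 (adjusted p = 3.4e-10, interval 1.73 to 2.71), the narrowest interval among the 12 genes. With PABPC1 the authors' deposited table gave 1.16-fold (adjusted p = 1, interval 0.926 to 1.54), and this turned below 1-fold with the median gene (0.897) or nuclear-encoded totals (0.83). C3 was the one member called higher with PABPC4 after leaving out any single library, but its fold was 1.2 with the median gene set to 1 (adjusted p = 0.817) and 1.08 with nuclear-encoded totals (adjusted p = 1). Although C3 had the most reads, its level per length with PABPC4, 96.8 RPKM, was under the 126 of FGA. The gene lengths used by the authors, recovered from the deposited folds, were 8328 nt for C3 and 3956 nt for FGA.

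C5, which starts the terminal complex (chr9:120952335-121074865), was read at 58.8 and 50.4 RPM with PABPC1, 98.8 and 72.5 with PABPC4, and 22.6 and 10.6 with IgG. CFB, the protease subunit of the alternative convertase (chr6:31946095-31952084), was read at 41.5 and 25.2 with PABPC1, 57.6 and 49.9 with PABPC4, and 0 and 21.2 with IgG. In each gene the groups did not overlap in RPM, on few IgG reads: 4 for C5 and 2 for CFB. In the authors' deposited table C5 was 5.16-fold with PABPC4 (adjusted p = 0.0166, interval 1.86 to 18.1) and CFB 5.06-fold (adjusted p = 0.0832, interval 1.64 to 51.2). The C5 call was lost without PABPC4 library A (4.36-fold, adjusted p = 0.0654), IgG library A (8.05-fold, 0.431) or IgG library B (3.79-fold, 0.31). With PABPC1 the authors' deposited table gave 3.29-fold for C5 and 3.14-fold for CFB, with adjusted p-values of 0.63 and 0.94. Without IgG library A, which holds 3 of the 4 IgG reads of C5 and none of CFB, C5 with PABPC1 became 5.13-fold, and CFB became 2.53-fold with PABPC4 and 1.57-fold with PABPC1 (adjusted p = 1 for all 3).

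Classical and lectin genes were near the limit of detection. C1R and C1S, the proteases of the C1 complex, had 15 and 7 reads over the 6 libraries, and MASP1 and MBL2, of the lectin pathway, had 8 and 2. MASP2 had 39 reads, of which 32 were with PABPC4, and it is overlapped by TARDBP. C4A and C4B, near-identical copies whose reads may be split between them by the counting, had 10 and 22. None of the 7 passed in either comparison with IgG (chi-square test in the authors' deposited table). Of the terminal genes, C8G had 44 PABPC4 reads, 6 PABPC1 reads and 2 IgG reads, and C8A had 33, 2 and 1. C8B, the neighbour of C8A on chromosome 1, had 3 reads, all with PABPC4. The 3 chains of complement C8 thus differed in level per length with PABPC4, from 25.4 RPKM for C8G to 8.28 for C8A and 0.651 for C8B.

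**Figure D4:**
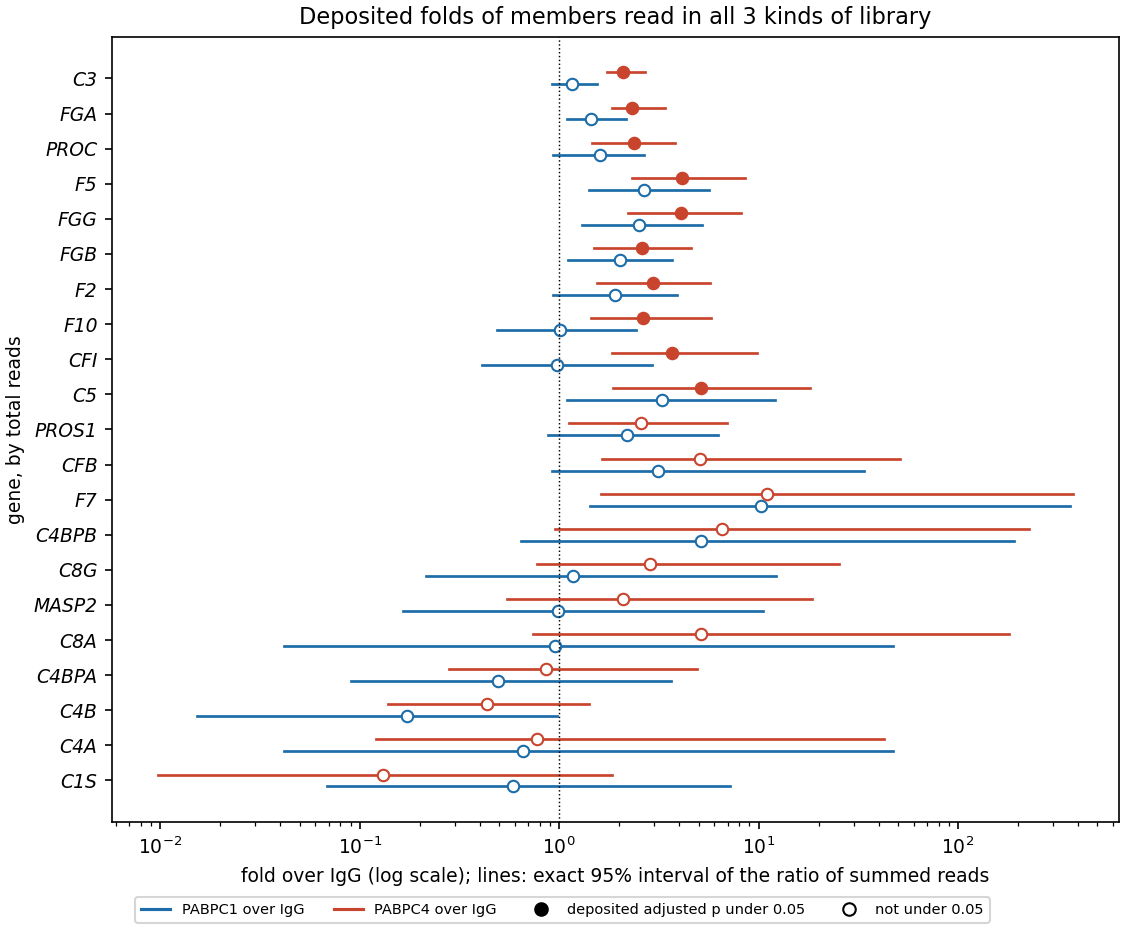
Fold over IgG in the authors' deposited table (log axis) for the 21 genes read with all 3 antibodies, PABPC1 in blue and PABPC4 in red, with the exact 95% interval of the ratio of summed reads. Filled points have a deposited adjusted p under 0.05: 10 genes with PABPC4 (0 with the median gene set to 1) and 0 with PABPC1, and intervals widen toward the genes with few IgG reads.

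CFI, the inhibitor protease that cuts C3b and C4b (chr4:109730982-109801999) and in this way holds back the alternative route, was called higher with PABPC4 against both IgG and PABPC1. CFI was read at 27.7 and 36 RPM with PABPC1, 115 and 124 with PABPC4, and 22.6 and 42.4 with IgG. PABPC1 lay within the range of IgG, and PABPC4 was far above both. The authors' deposited table gave 3.67-fold over IgG with PABPC4 (adjusted p = 0.00532, interval 1.85 to 9.77) and 0.979-fold with PABPC1 (adjusted p = 1, interval 0.411 to 2.92). The IgG side rests on 7 reads, and the PABPC4 call ended when IgG library A was left out (2.81-fold, adjusted p = 0.701) or B (5.29-fold, 0.0564). The PABPC1 fold turned above 1 without PABPC1 library A (1.11) or IgG library B (1.41).

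SERPING1, the inhibitor of the C1 proteases (chr11:57597685-57614848), went the other way on very few reads. It had 0 PABPC4 reads, 1 PABPC1 read in library B and 3 IgG reads, all in IgG library A. The exact 95% interval of the ratio of PABPC4 to IgG ran from 0 to 0.325. The adjusted p was 0.00328 in the authors' deposited table, and the call was lost without PABPC4 library A (adjusted p = 0.102) or B (0.0945), without IgG library A, where no IgG read is left, and in a test over genes with at least 10 reads, which leaves SERPING1 out. Markers of blood and leukocytes were likewise lower with PABPC4: their 13 genes summed to 3691 and 3778 RPM with IgG, 1345 and 1466 with PABPC1, and 755 and 606 with PABPC4, and 6 of the 13 were lower in the authors' deposited table. HBB, a haemoglobin gene, had the most reads of them, at 2203 and 2228 RPM with IgG and 334 and 270 with PABPC4. The 8 fibroblast markers summed to 218 and 180 with IgG, 65.7 and 43.2 with PABPC1, and 25.9 and 15.5 with PABPC4. Of the 7 with a PABPC4 p-value, 3 were lower in the authors' deposited table, beside the same 0.900% of all genes. Endothelial markers, with TEK at 0, and platelet markers, with GP9 at 0, summed to no more than 60.1 and 45.1 RPM in any library. No list was at 0 in any library, and the part of such RNA in the SERPING1 result was not tested. The C4b-binding protein chains were less scarce. C4BPB had 11 PABPC1, 42 PABPC4 and 1 IgG reads, and C4BPA 4, 21 and 3.

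PABPC4 was then set against PABPC1 in a model across all genes, to ask which of these mRNAs came down more with one protein than with the other. CFI and C3 were higher with PABPC4, and 0 members were lower in the limma fit. The limma (voom) fit covered 19 of the 36 genes among 7987 that reached 10 reads in 2 or more libraries, with the median gene set to 0. Over all genes fitted, 2.43% were called higher with PABPC4 and 2.08% lower at a Benjamini-Hochberg adjusted p under 0.05. CFI was higher by 1.40 on the log2 scale (SE 0.34, 95% interval 0.71 to 2.09, limma adjusted p = 0.00898). C3 was higher by 0.41 (SE 0.11, interval 0.18 to 0.64, limma adjusted p = 0.029). In both genes each PABPC4 library lay above each PABPC1 library. Leaving out either PABPC1 library ended both calls, while leaving out either PABPC4 library did not. In each of these fits the lone library of an antibody was assumed to vary like the other groups. Without a PABPC1 library calls over all genes fell as well, and the cause was not tested. The fold of CFI was 2.44 to 2.88 without a PABPC1 library and 2.56 to 2.72 without a PABPC4 library. For C3 the fold was 1.33 in each of these fits.

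The other 17 genes fitted did not pass. At an unadjusted p under 0.05, limma held 4 of the 19 higher (C3, CFI, F10 and C8A) and 0 lower, beside 8.61% and 7.83% of all genes. F10 came closest among the well-read ones, at a log2 difference of 0.88 (SE 0.30, interval 0.27 to 1.50, limma adjusted p = 0.0982). It passed with a filter of 20 reads (limma adjusted p = 0.042) and with only the PABPC1 and PABPC4 libraries (0.0296). With nuclear-encoded totals it did not (0.123). C8A had the largest difference, 1.91 (SE 0.69, interval 0.51 to 3.30, limma adjusted p = 0.119), on 2 PABPC1 reads and 33 PABPC4 reads. It entered the fit only through its PABPC4 reads. F11 stood at 1.04 (SE 0.59, limma adjusted p = 0.393) and C8G at 0.71 (SE 0.54, limma adjusted p = 0.566). These wide intervals leave room for large differences as well as for none.

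The abundant clotting genes were not called between the proteins. FGA and FGG were each at a log2 difference of 0.24, with intervals from -0.05 to 0.53 and from -0.17 to 0.65. FGB was at -0.08 (interval -0.51 to 0.34), so the sign was not shared by the 3 chains. F5 was at 0.20 (-0.21 to 0.60), F2 at 0.17 (-0.32 to 0.66) and PROC at 0.11 (-0.29 to 0.51). For PROS1 the difference was -0.25 (-0.86 to 0.35) and for F7 it was -0.38 (-1.09 to 0.33), the lowest of the 19. The limma adjusted p-values of these 8 genes ran from 0.43 to 0.897. The remaining 5 genes lay from -0.18 for C4BPB to 0.64 for MASP2.

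Of the 19 genes, 15 had a difference above 0, with a median of 0.24 on the log2 scale beside 0.00 over all 7987 genes. With library totals in place of the median gene, the median of all genes moved to 0.45 and that of the 19 to 0.68. On that scale 7 members were called higher, namely C3, CFI, C8A, F10, F5, FGA and FGG, where 14.0% of all genes were higher and 0.689% lower. FGB and PROS1 turned positive on that scale. With nuclear-encoded totals CFI and C3 were the members called, as with the median gene.

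**Figure D5:**
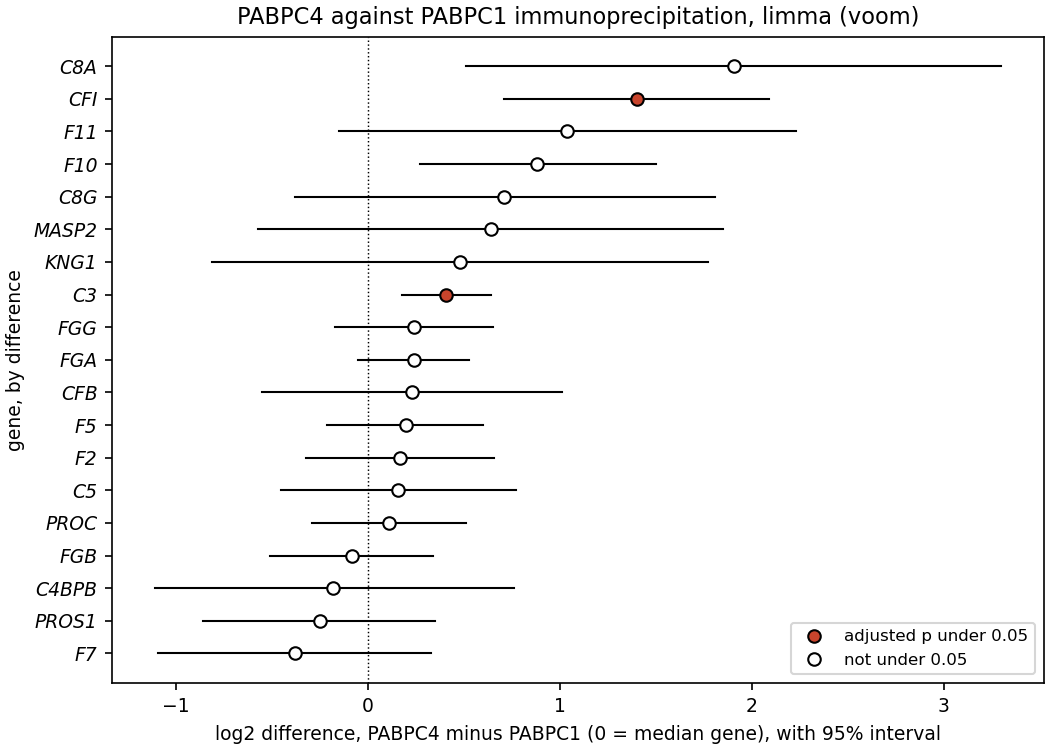
Log2 difference of PABPC4 minus PABPC1 from the limma (voom) fit, with its 95% interval, for the 19 genes fitted, where 0 is the median gene. CFI and C3 (filled) have an adjusted p under 0.05, and 15 of the 19 lie right of 0; with library totals FGB and PROS1 lie right of 0 as well.

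Other genes of clotting and fibrinolysis were read alongside. Of 28 such genes, 26 had a read, and 5 of 24 with a PABPC4 p-value were higher in the authors' deposited table with 0 lower. They were TFPI, the inhibitor of the tissue factor pathway, FGL1, a fibrinogen-like hepatokine, A2M, the broad protease inhibitor alpha-2-macroglobulin, SERPIND1, heparin cofactor II, and LMAN1, a cargo receptor that carries factors V and VIII out of the endoplasmic reticulum. With PABPC1, 5 of 25 with a p-value were higher in the authors' deposited table, again TFPI, FGL1, A2M, SERPIND1 and LMAN1. There 5.54% of all genes were higher with PABPC4 and 1.34% with PABPC1. Of those with at least 100 reads, 32.0% and 6.30% were. With the median gene set to 1, higher calls with PABPC4 over all genes fell from 1188 to 169. Whether these 5 genes kept their calls on that scale is not given here. Both comparisons share the IgG libraries. FGL1 was 4.08-fold over IgG with PABPC4 and 2-fold with PABPC1, and TFPI 3.58-fold and 1.96-fold, in the authors' deposited table. Against PABPC1, the limma fit called 2 of 15 higher with PABPC4, FGL1 by 0.59 on the log2 scale (SE 0.12, adjusted p = 0.0017) and TFPI by 0.43 (SE 0.11, adjusted p = 0.0149). It called 1 lower, VKORC1L1, a relative of the vitamin K epoxide reductase, by -0.71 (SE 0.20, limma adjusted p = 0.0281). Over all genes fitted, 2.43% were called higher and 2.08% lower.

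Of 31 other complement genes, 16 had no read and 15 had a read. Over all 58302 genes listed, 22607 had a read. CLU, which encodes clusterin, an inhibitor of the terminal complex, was higher at 4.3-fold with PABPC4 and 2.4-fold with PABPC1 in the authors' deposited table (adjusted p = 5.9e-19 and 1.6e-04), and it was read at 342 and 458 RPM with PABPC1, 749 and 683 with PABPC4, and 195 and 138 with IgG. FCN1, a ficolin of monocytes, and C5AR1, the C5a receptor of myeloid cells, were lower with PABPC4 at 0.105-fold and 0.06-fold in the authors' deposited table (adjusted p = 4.6e-06 and 0.00915). They had 10 and 4 IgG reads, and the blood and leukocyte markers were lower in the same comparison, as given above for SERPING1. None of the 7 complement genes fitted by limma passed between PABPC4 and PABPC1, where CLU stood at 0.40 (SE 0.13, limma adjusted p = 0.0641).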

How the data were processed

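RIP-seq was measured in 6 HepG2 libraries. Both deposited tables give, per the file headers, the authors' linear ratio (FC) of RIP over IgG, a p-value and a Benjamini-Hochberg adjusted p-value for each gene; 0 columns hold single libraries. Per the submitters' processing notes, the tools were featureCounts 2.0.1, STAR 2.7.10a and Bowtie2 2.4.1 and the build GRCh38 (hg38), without their roles. The labels' protocols give random-primed libraries; the strand setting was not given in the sources used here.

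Worked out from the deposited values, the authors' p-value is that of a Yates-corrected chi-square test of summed reads, which leaves out the spread between libraries, and the deposited ratio compares mean levels, with 0.005 RPKM added to IgG. From these, reads of each library were recovered for 22114 of 22607 genes with a read, and summed reads for 491; MT-RNR1 and MT-RNR2 were taken as the rest of each total. Recomputed and deposited p-values had a largest log ratio of 2.2e-13. All 36 members were resolved by library. Reads are not molecules, since no molecular identifiers are described. The labels do not say whether replicates are separate cultures. The limma p-values therefore measure only the spread between these samples, possibly technical. The p-values of the chi-square and Fisher's exact tests measure counting error only. Between libraries of one antibody, chi-square over degrees of freedom came to 1.04 for PABPC1 (p = 3.3e-02), 1.12 for PABPC4 (p = 1.5e-14) and 1.08 for IgG (p = 6.6e-02) over genes with at least 20 reads, and 1.30, 1.47 and 1.96 over those with at least 200 (160, 1341 and 21 genes). The 2 libraries of each antibody were kept as separate replicates in the limma fit. The 2 IgG libraries came from different overexpressing populations, so a difference between populations cannot be told apart from their spread. Each comparison with IgG therefore includes a control library of the other population. Leaving out an IgG library leaves the control of a single population, and which one is not known. They were summed in the chi-square test, Fisher's exact test and the exact intervals. For IgG the spread beyond sampling rests on the 21 genes.

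For the comparisons with IgG a gene was called where its deposited adjusted p was under 0.05, with exact intervals from the summed reads (scipy 1.17.1). PABPC4 against PABPC1 was fitted with limma 3.58.1 (voom) in R 4.3.3 on all 3 groups, median-of-ratios scaling, and genes that reached 10 reads in 2 or more libraries. The scripts were tested on simulated data. Alternatives were the scaling, filter, threshold, test and each library left out. Members were named in full where called or with at least 100 reads, and other genes of the pathways where called. The members and lists were chosen with earlier results of these data known. Coordinates are from RefSeq annotation of GRCh38.p14, matched by symbol for all 36 members.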

Additional observations from a re-analysis of the deposited data

Results flagged for a closer look

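The log2 difference of PABPC4 minus PABPC1 was flagged for CFI (1.40, limma adjusted p = 0.00898) and for C3 (0.41, limma adjusted p = 0.029), because it passed the test of the difference between the groups. In RPM, the PABPC1 libraries of both genes overlapped the IgG libraries, and both PABPC4 libraries lay above them. With nuclear-encoded totals this did not hold for C3, which had 42 of 39657 reads in IgG library B and 680 of 688631 in PABPC4 library A. Antibody and overexpressed protein cannot be told apart in this difference.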

How the results depend on the processing

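No paired analysis was possible because the deposited tables do not tell which library carries which replicate number; the planned fit with a replicate block was therefore not run. The count of members higher with PABPC1 over IgG, 0 as deposited, was 1 (F5) in a test over genes with at least 10 reads. The 10 members higher with PABPC4 over IgG became 0 with median-of-ratios scaling, 0 with nuclear-encoded totals and 0 in the limma fit, which also uses median-of-ratios scaling. They became 1 to 9 with a library left out: C3 alone without IgG library A, and 4 (C3, F5, FGA, FGG) without IgG library B. The 1 member lower, SERPING1, became 0 with the filter of 10 reads and in limma, and 0 to 1 with a library left out. For PABPC4 over PABPC1, 2 members became 7 with library totals and 0 with limma on log2(RPM + 1) with a trend, where no gene of 7987 was called. They became 3, with F10 added, under the filter of 20 reads and with only the PABPC1 and PABPC4 libraries. With a library left out, CFI and C3 lost their calls without PABPC1 library A or B and kept them otherwise. In each such fit the lone library was assumed to vary like the other groups, and the cause of the loss was not tested. Calls over all genes, 194 higher and 166 lower, fell to 5 and 10 without PABPC1 library A and to 1 and 11 without B, and were 1115 and 55 with library totals and 179 and 1578 without the filter. Calls with PABPC4 over IgG, 1188 higher and 193 lower, were 169 and 396 with median-of-ratios scaling, 112 and 427 with nuclear-encoded totals, 193 and 131 in limma, and 369 and 133 without IgG library A. With PABPC1 over IgG, 235 higher and 34 lower became 36 and 52, 26 and 73, 41 and 34, and 49 and 25 in the same order.

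Directions turned for PABPC1 over IgG in C3 (0.897-fold with median-of-ratios scaling, 0.83 with nuclear-encoded totals, 0.909 in limma, and 0.998 to 1.38 with an IgG library left out, 0.998 without A), in F10 (0.785, 0.726 and 0.759 in that order, 0.915 without PABPC1 library B, and 0.866 to 1.22 with an IgG library left out, 0.866 without A) and in CFI (0.75 to 1.41 with a library left out, 1.41 without IgG library B, 1.11 without PABPC1 library A). For PABPC4 over PABPC1 they turned in FGB (1.29 with library totals, 1.08 without PABPC1 library B, 1.02 without PABPC4 library A), PROS1 (1.14 with library totals), F2 (0.976), C5 (0.993) and CFB (0.885 to 1.54 with a library left out) without PABPC1 library B, and C5 (0.956 to 1.31 with a library left out) without PABPC4 library A. None of these was a called result, and the cause of each change was not tested. Depth limits the set most on the IgG side, where 8 members with a read in a PABPC1 or PABPC4 library had 0 reads.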
